A study of Mus musculus with 24 samples.

Results

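Total RNA of the nucleus accumbens (Acb) was compared with that of dorsal striatum (DS) in mice whose ribosomal protein S6 (rpS6) cannot be phosphorylated. Members were the 6 whole lysate libraries labelled knockin, 3 from the Acb and 3 from the DS, of 24 libraries in the series, and every gene with enough reads was examined. The series crossed 2 regions with 2 genotypes and 2 kinds of RNA: knockin mice or their wild-type littermates, and whole lysate RNA or RNA from heavy polysomal fractions, which hold mRNAs bound by many ribosomes. In the knockin mice, called rpS6P-/- in the study, all phosphorylation sites of ribosomal protein S6 are replaced by alanine in every cell of the body, in the Acb and DS alike, so that both groups compared here carry the same allele. The mice were of mixed C57Bl/6, Sv129 and ICR background, males and females were used, no drug or other treatment is named in the labels, no age is given for these libraries, and tissue of several mice was pooled for each library. The Acb was cut from a more anterior brain slice than the DS, so that region and slice level cannot be told apart.

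Both regions are made up mainly of medium spiny neurons, GABAergic projection neurons that receive glutamate from the cortex and thalamus and dopamine from the midbrain. Those of the direct pathway carry the D1 dopamine receptor with substance P and dynorphin, and those of the indirect pathway carry the D2 receptor, the adenosine A2a receptor and enkephalin. The DS is known for movement selection and habits, whereas the Acb is the ventral striatal node for reward and motivation and lies next to the septum, the ventral pallidum and the islands of Calleja.

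The 3 Acb libraries held 9697531 to 14015616 reads assigned to genes and the 3 DS libraries 16424561 to 19207807, so every DS library was deeper than every Acb library. Levels are given as CPM, the reads of a gene relative to all reads of its library, scaled between libraries with the TMM method. The noncoding RNA Bc1 alone took 20.9% to 26.1% of the reads in the Acb and 15.2% to 21.9% in the DS. The first principal component, with 46.5% of the variance, separated the regions, and the second, with 18.9%, set Acb replicate 2 apart from Acb replicate 3. Spearman correlations between libraries were 0.9553 to 0.9625 within the Acb, 0.9749 to 0.9793 within the DS and 0.9403 to 0.9467 across regions. Genes of the sex chromosomes varied between libraries. Of 5 genes of the inactive X and the Y chromosome tested, 1 was called lower in the Acb and none higher. Without Acb replicate 1 or DS replicate 3 none was called. Xist, the RNA of the inactive X chromosome, was at 9.88, 3.80 and 6.63 CPM in the Acb and at 0.493, 4.08 and 0 CPM in the DS, and the Y-linked Ddx3y was at 19.4, 37.4 and 20.7 CPM and at 20.5, 16.6 and 51.9 CPM. DS replicate 3 thus had no Xist read and the highest Ddx3y level, and the part of sex in any result was not tested.

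A total of 1693 of 15575 genes tested (10.9%) differed between the Acb and DS of rpS6P-/- mice at an adjusted p under 0.05, by the quasi-likelihood F test of edgeR with Benjamini-Hochberg adjustment over all genes tested. This test applies to every adjusted p below, and log2 fold changes are Acb over DS with their standard error (SE). Of these genes, 754 were higher in the Acb (4.84% of all tested) and 939 were lower (6.03%), and 3381 had an unadjusted p under 0.05. These shares over all genes are the ones to set beside the list counts in knockin whole lysates below. The median log2 fold change of all genes tested was 0.003. Changes of at least 2-fold were called for 262 genes higher and 244 lower, and changes of at least 8-fold for 48 higher and 29 lower. The count fell to 1049 without DS replicate 2 and to 1113 without DS replicate 1, and lay between 1272 and 1554 without any other single library. As replicates of a region are separate pools of mice, these p-values measure the spread between pools.

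**Figure D1:**
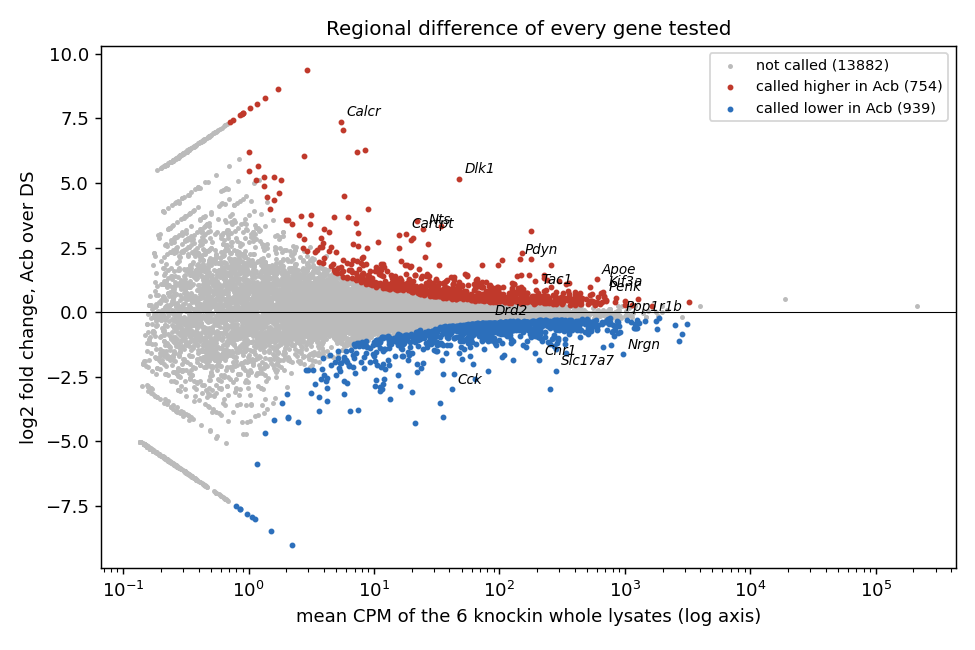
Log2 fold change of Acb over DS (vertical axis) against the mean CPM of the 6 knockin whole lysates (horizontal log axis) for 15575 genes. Red points are the 754 genes called higher in the Acb, blue points the 939 called lower and grey points those not called, and the straight diagonal rows at low CPM are genes with few reads, many of them with none in one region.

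The genes that define medium spiny neurons were abundant in both regions. Ppp1r1b, which encodes DARPP-32, was at 771, 929.8 and 896 CPM in the Acb and at 1047, 968 and 898 CPM in the DS, with overlapping ranges (log2 fold change -0.17 ± 0.09 SE, adjusted p = 0.264). The D1 receptor gene, listed as Drd1a, was at 231, 236 and 209.6 CPM in the Acb against 184, 217 and 206 CPM in the DS (log2 fold change 0.16 ± 0.11, adjusted p = 0.426). The D2 receptor gene Drd2 was at 52.8, 78.9 and 87.6 CPM against 96.0, 87.5 and 91.3 CPM (log2 fold change -0.33 ± 0.15, adjusted p = 0.179). For these 3 genes no regional difference passed the test, and for each the values of the regions overlapped. Adora2a, the A2a receptor gene of the indirect pathway, had log2 fold change -0.09 ± 0.11 (adjusted p = 0.721). In bulk tissue, fewer cells of a type and less RNA per cell cannot be told apart.

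Other genes shared by medium spiny neurons were lower in the Acb. Of 22 such genes tested, 12 fell, 1 rose and 9 did not pass, with a median log2 fold change of -0.33 against 0.003 over all genes. Pde10a, the striatal phosphodiesterase that degrades cAMP and cGMP, was at 598, 611 and 573 CPM in the Acb and at 1064, 931 and 1007 CPM in the DS, without overlap. Its log2 fold change was -0.75 ± 0.08 (adjusted p = 1.18e-08). Foxp1, a transcription factor of striatal projection neurons, was at 247, 253 and 246 CPM against 394, 379 and 377 CPM (log2 fold change -0.62 ± 0.10, adjusted p = 7.03e-06). The sodium channel subunit Scn4b had a log2 fold change of -0.55 ± 0.09 (adjusted p = 1.54e-05), and the calmodulin-binding Strn had a log2 fold change of -0.83 ± 0.14 (adjusted p = 4.31e-05). The 1 gene that rose, Tmem158, was no longer called when any 1 library other than DS replicate 2 was left out.

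Genes described as ventral striatal markers were higher in the Acb: 13 of 15 tested rose and none fell, with a median log2 fold change of 2.05. Such lists come from published descriptions of rodent striatum and earlier results of these data were known when they were written, so the direction of a list is not independent evidence. The smallest adjusted p of the whole comparison belonged to Dlk1, an imprinted gene that encodes a membrane protein related to Notch ligands. It was at 96.6, 87.0 and 96.4 CPM in the 3 Acb libraries and at 2.74, 2.23 and 2.80 CPM in the DS. Every Acb library was far above every DS library, a mean ratio of 36.1 (log2 fold change 5.16 ± 0.20, adjusted p = 1.17e-21). Peg10, an imprinted gene derived from a retrotransposon, was at 359.6, 374 and 229 CPM against 40.1, 34.3 and 36.0 CPM (log2 fold change 3.12 ± 0.14, adjusted p = 1.08e-19). Hap1, the huntingtin-associated protein, was at 289, 273 and 309 CPM against 74.1, 55.5 and 79.9 CPM (log2 fold change 2.05 ± 0.12, adjusted p = 6.81e-16).

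Crym, a thyroid hormone binding protein, was at 219, 231 and 203 CPM in the Acb and 71.4, 83.4 and 83.7 CPM in the DS (log2 fold change 1.45 ± 0.12, adjusted p = 2.64e-12). Zcchc12, a transcriptional coactivator, was at 207, 183 and 211 CPM against 67.8, 67.6 and 90.4 CPM (log2 fold change 1.41 ± 0.13, adjusted p = 3.74e-11). Calb2, the calcium buffer calretinin, was at 40.9, 31.4 and 31.7 CPM against 4.60, 3.77 and 6.48 CPM (log2 fold change 2.80 ± 0.27, adjusted p = 2.99e-10). None of the 3 overlapped between regions. Drd3, the D3 receptor gene known from the ventral striatum and the islands of Calleja, was at 1.5, 2.70 and 1.82 CPM in the Acb and at 0, 0 and 0.275 CPM in the DS. It held 20, 27 and 19 reads in the Acb and 0, 0 and 5 in the DS, and the difference did not pass the test (log2 fold change 4.31 ± 1.71, adjusted p = 0.107). Drd3 was called in 4 of 18 alternatives: DESeq2's Wald test, limma-voom, newer edgeR settings and without DS replicate 3. Oprk1, the kappa opioid receptor gene, was the other ventral marker that did not pass (log2 fold change 0.20 ± 0.21, adjusted p = 0.667).

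Of 6 genes described as higher in the DS, 5 were lower in the Acb and Drd2, above, did not pass. Their median log2 fold change was -0.80. In wild-type whole lysates and in knockin heavy fractions all 6, Drd2 among them, were called lower in the Acb. Cnr1, the cannabinoid CB1 receptor gene, was at 96.0, 95.5 and 75.3 CPM in the Acb and at 296, 394 and 286 CPM in the DS. The DS level was 3.66 times that of the Acb with no overlap (log2 fold change -1.87 ± 0.12, adjusted p = 1.04e-14). Coch, an extracellular matrix protein, was at 5.46, 9.41 and 19.8 CPM against 50.4, 76.0 and 52.8 CPM (log2 fold change -2.38 ± 0.27, adjusted p = 1.06e-08). Gpr155, an integral membrane protein, had a log2 fold change of -0.92 ± 0.15 (adjusted p = 1.29e-05). Rasd2, the small GTPase Rhes, had a log2 fold change of -0.69 ± 0.10 (adjusted p = 3.18e-06). Rgs9, a regulator of dopamine receptor signalling, had a log2 fold change of -0.51 ± 0.10 (adjusted p = 0.000486).

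**Figure D2:**
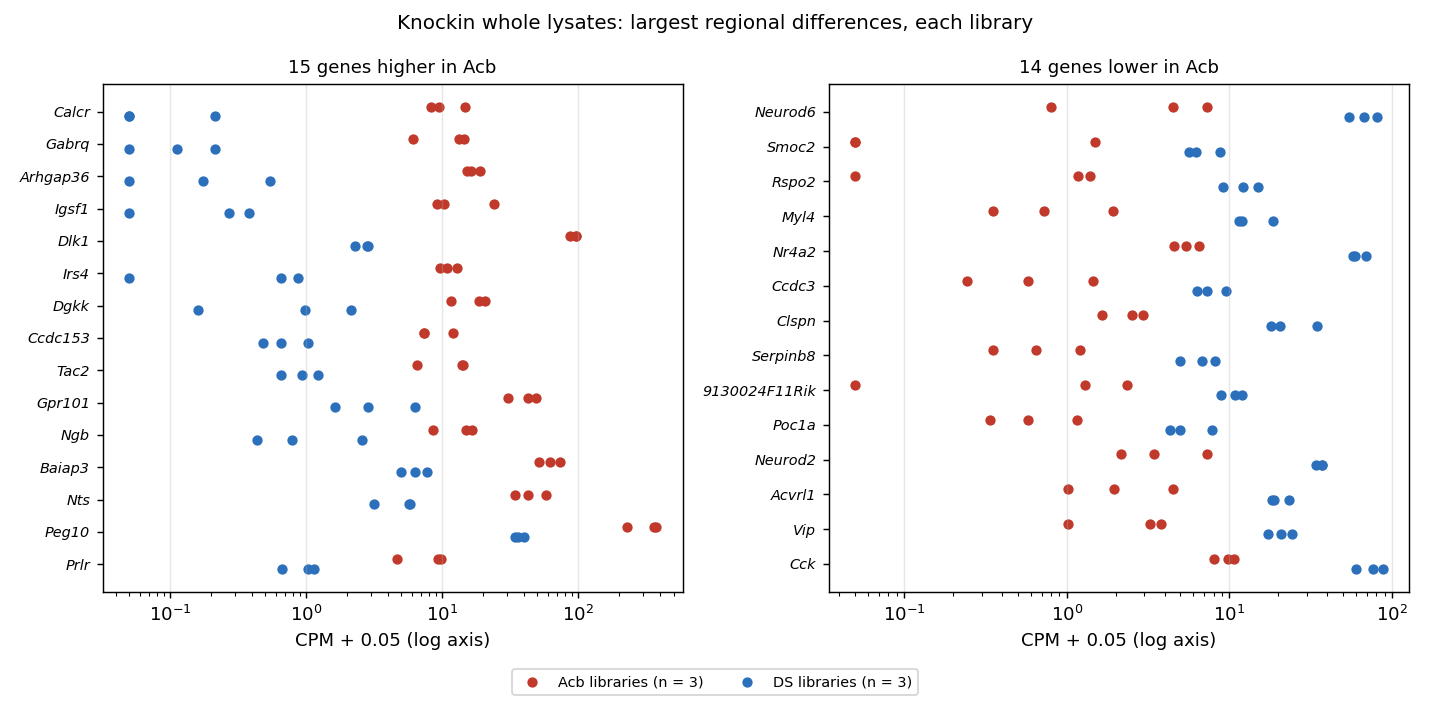
CPM in each of the 3 Acb libraries (red) and 3 DS libraries (blue) for genes with the largest called change, 15 higher in the Acb and 14 lower, on a log axis after adding 0.05 so that 0 can be drawn. The genes were chosen among those whose regions do not overlap, so the gap within each gene follows from the choice. For Dlk1 the Acb libraries lie between 87.0 and 96.6 CPM against 2.23 to 2.80 in the DS.

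The 15 largest increases in the Acb, among genes that averaged 50 or more reads and whose regions did not overlap, had log2 fold changes of 3.10 to 7.37. Calcr, the calcitonin and amylin receptor, was at 14.7, 8.21 and 9.41 CPM in the Acb and at 0, 0 and 0.165 CPM in the DS (log2 fold change 7.37 ± 0.76, adjusted p = 1.51e-09). Gabrq, the theta subunit of GABA-A receptors, was at 14.4, 6.01 and 13.2 CPM against 0.164, 0.0619 and 0 CPM (log2 fold change 7.05 ± 0.72, adjusted p = 1.02e-09). Both genes were nearly absent from the DS, so their fold changes rest on very few DS reads. Arhgap36 (log2 fold change 6.26 ± 0.57), which activates hedgehog signalling, and Igsf1 (log2 fold change 6.20 ± 0.62), a pituitary and hypothalamic membrane glycoprotein, showed the same near absence from the DS. Irs4, an insulin receptor substrate, was at 10.9, 9.61 and 12.7 CPM against 0.603, 0 and 0.824 CPM (log2 fold change 4.49 ± 0.62, adjusted p = 8.51e-07).

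Gpr101, an orphan G protein-coupled receptor, was at 48.9, 42.2 and 30.5 CPM in the Acb against 1.59, 6.25 and 2.80 CPM in the DS (log2 fold change 3.53 ± 0.32, adjusted p = 5.95e-11). Baiap3, which takes part in dense-core vesicle trafficking, was at 73.4, 62.1 and 51.4 CPM against 7.62, 6.25 and 4.89 CPM (log2 fold change 3.32 ± 0.22, adjusted p = 1.15e-14). Ngb, the oxygen-binding neuroglobin, was at 16.5, 8.51 and 14.9 CPM against 0.383, 0.742 and 2.53 CPM (log2 fold change 3.44 ± 0.51, adjusted p = 3.76e-06). Several of the genes above are known from the hypothalamus and septum as well as from the Acb. The remaining members of this group were the diacylglycerol kinase Dgkk (log2 fold change 4.00 ± 0.51), the ependymal gene Ccdc153 (log2 fold change 3.70 ± 0.59), the neurokinin B precursor Tac2 (log2 fold change 3.69 ± 0.51), the neurotensin precursor Nts (log2 fold change 3.21 ± 0.27) and the prolactin receptor Prlr (log2 fold change 3.10 ± 0.60), besides Dlk1 and Peg10.

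Genes expressed from 1 parental allele, of which Dlk1, Peg10 and Calcr are members, stood on the Acb side. Of 26 imprinted genes tested, 13 were higher in the Acb and none lower (50% called, against 10.9% of all genes). The median log2 fold change was 0.57 against 0.003 over all genes. Nnat, which encodes the small membrane protein neuronatin, was at 462, 375 and 369.9 CPM in the Acb and at 122, 119 and 98.5 CPM in the DS (log2 fold change 1.83 ± 0.11, adjusted p = 9.05e-16). Grb10, an adaptor that restrains insulin receptor signalling, was at 119, 88.9 and 89.3 CPM against 49.6, 46.5 and 53.3 CPM (log2 fold change 0.99 ± 0.14, adjusted p = 2.59e-06). Nap1l5 had a log2 fold change of 0.78 ± 0.10 (adjusted p = 4.58e-07). The regions did not overlap for these 3 genes or for 17 of the 26 in all, against 26.2% of all genes tested.

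Many neuropeptide precursors, the ligands of G protein-coupled receptors, differed between the regions. Of 33 precursors and granins tested, 18 were higher in the Acb, 4 were lower and 11 did not pass (66.7% called, against 10.9% of all genes). The median log2 fold change was 0.95. Pdyn, the dynorphin precursor of direct pathway neurons, was at 254, 237 and 208 CPM in the Acb and at 51.2, 61.1 and 57.4 CPM in the DS. All Acb libraries exceeded all DS libraries, with a ratio of means of 4.12 (log2 fold change 2.04 ± 0.12, adjusted p = 6.81e-16). Tac1, the substance P precursor of the same cells, was at 251, 215 and 285 CPM against 121, 135 and 156 CPM (log2 fold change 0.86 ± 0.12, adjusted p = 6.64e-07). Penk, the enkephalin precursor of indirect pathway neurons, was at 735, 818 and 908 CPM against 499.6, 625 and 484 CPM (log2 fold change 0.61 ± 0.10, adjusted p = 9.99e-06). The 3 peptide precursors of the output pathways were thus higher in the Acb. The D1, D2 and A2a receptor genes of the same cells did not pass the test, which does not show equal levels. The difference between precursors and receptors was not tested. Of 11 direct pathway genes tested, 3 were called higher and 2 lower, Eya1 and Sfxn1 (45.45% called, against 10.9% of all genes). Without DS replicate 1 none of these 11 was called lower. Of 9 indirect pathway genes tested, Penk alone was called (11.1%, near the 10.9% of all genes).

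Nts, the neurotensin precursor, was at 57.9, 42.5 and 34.0 CPM in the Acb and at 5.75, 3.09 and 5.6 CPM in the DS (adjusted p = 5.12e-12). Cartpt, whose peptide CART is induced by psychostimulants, was at 31.9, 19.1 and 45.2 CPM against 3.40, 3.53 and 4.78 CPM (log2 fold change 3.04 ± 0.31, adjusted p = 7.38e-10). Tac2 was at 14.1, 6.51 and 13.8 CPM against 0.603, 1.18 and 0.879 CPM (adjusted p = 8.1e-07). In each of these 3 genes the lowest Acb library was above the highest DS library. Pnoc, the nociceptin precursor, had a log2 fold change of 1.99 ± 0.45 (adjusted p = 0.00168, not called without Acb replicate 3), and Scg2, a granin of dense-core vesicles, was at 484, 385 and 384 CPM against 166, 208 and 172 CPM (log2 fold change 1.20 ± 0.11, adjusted p = 5.63e-11). Among interneuron peptides, Sst, the somatostatin precursor, was at 129, 133 and 119 CPM against 66.8, 87.6 and 85.1 CPM (log2 fold change 0.67 ± 0.13, adjusted p = 0.000214). Npy, which marks many of the same interneurons, was at 56.8, 47.7 and 50.5 CPM against 49.9, 51.8 and 50.0 CPM, with overlapping ranges (log2 fold change 0.03 ± 0.16, adjusted p = 0.949).

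Among the 4 precursors that fell were peptides known from cortical neurons. Cck, the cholecystokinin precursor, was at 8.01, 9.81 and 10.6 CPM in the Acb and at 76.9, 87.4 and 59.7 CPM in the DS (log2 fold change -2.98 ± 0.20, adjusted p = 1.15e-14). Vip, the vasoactive intestinal peptide precursor, was at 0.973, 3.20 and 3.75 CPM against 20.7, 24.2 and 17.1 CPM (log2 fold change -2.99 ± 0.38, adjusted p = 1.84e-07). Adcyap1, the PACAP precursor, and the granin Chgb completed this group, and without DS replicate 1 the count was 2.

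The promoters of 4 of the 27 precursor genes that could be matched to RefSeq start sites held the palindromic cAMP response element, TGACGTCA, in the 250 bases before the start (14.8%). They are shown as the precursors with this element, 4 of the 22 called, which include both directions: Cartpt, Scg2 and Sst were higher in the Acb and Chgb was lower (log2 fold change -0.39, adjusted p = 0.028). The same 8 letters, which read alike on both strands, were found in 1.55% of all 32851 promoters in the RefSeq table and in 2.91% of the 12233 tested genes with a promoter. They were found in 2.79% of genes called higher in the Acb and in 3.25% of genes called lower. A match is a description of the letters and not evidence of binding. Each line gives the 150 bases before the start, 5′ to 3′ on the gene's strand (GRCm38.p6), with the element in capitals.
Cartpt (chr13:99900684-99900833, minus strand): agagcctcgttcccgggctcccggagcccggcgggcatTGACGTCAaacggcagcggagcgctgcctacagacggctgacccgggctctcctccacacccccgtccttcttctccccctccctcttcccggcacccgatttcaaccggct
Chgb (chr2:132781492-132781641, plus strand): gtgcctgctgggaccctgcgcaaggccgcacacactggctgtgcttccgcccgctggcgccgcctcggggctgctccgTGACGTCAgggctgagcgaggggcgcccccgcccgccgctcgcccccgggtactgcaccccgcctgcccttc
Scg2 (chr1:79440027-79440176, minus strand): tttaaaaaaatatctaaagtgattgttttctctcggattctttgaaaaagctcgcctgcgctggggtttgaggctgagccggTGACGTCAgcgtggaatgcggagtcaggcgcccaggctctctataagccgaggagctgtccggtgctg
Sst (chr16:23890845-23890994, minus strand): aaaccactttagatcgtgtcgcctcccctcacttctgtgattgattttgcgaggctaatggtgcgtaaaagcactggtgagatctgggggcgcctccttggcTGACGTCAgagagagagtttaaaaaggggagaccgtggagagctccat
The element began 112, 72, 68 and 48 bases before the start in Cartpt, Chgb, Scg2 and Sst.

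Among 35 neuropeptide receptors tested, 4 were higher in the Acb, 2 were lower and 29 did not pass. Over all genes 4.84% were higher and 6.03% lower, and the count lower is near the latter. With DESeq2's Wald test 8 rose, and with newer edgeR settings 7. Npy2r, the neuropeptide Y Y2 receptor, was at 25, 19.9 and 11.1 CPM in the Acb and 2.90, 4.33 and 1.37 CPM in the DS (log2 fold change 2.71 ± 0.39, adjusted p = 1.98e-06). Trhr, the thyrotropin-releasing hormone receptor, was at 16.8, 9.21 and 13.5 CPM against 2.14, 1.24 and 1.37 CPM (log2 fold change 3.05 ± 0.44, adjusted p = 1.9e-06), and its ligand precursor Trh also rose. Adcyap1r1, the PACAP receptor, had a log2 fold change of 0.95 ± 0.14 (adjusted p = 2.16e-06), whereas the gene of its ligand, Adcyap1, was among the precursors that fell. The receptors Cckbr (log2 fold change -1.05 ± 0.28, adjusted p = 0.00823) and Sstr3 (log2 fold change -1.25 ± 0.34, adjusted p = 0.0111) were lower. Without DS replicate 1 no receptor was called lower, and without Acb replicate 1, DS replicate 2 or DS replicate 3 the count was 1.

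Serotonin receptors showed 3 increases and no decrease among 12 tested (25% called, against 10.9% of all genes). Htr2c, a Gq-coupled receptor, was at 109.9, 107 and 106 CPM in the Acb against 48.0, 51.5 and 43.1 CPM in the DS (log2 fold change 1.18 ± 0.14, adjusted p = 2.6e-08). Htr4, a Gs-coupled receptor, was at 10.1, 7.41 and 4.61 CPM against 1.42, 0.804 and 2.03 CPM (log2 fold change 2.37 ± 0.58, adjusted p = 0.00379). Htr7 had a log2 fold change of 1.09 ± 0.36 (adjusted p = 0.0382), and its call was lost in 7 of 18 alternatives, among them limma-voom, thinning, and leaving out Acb replicate 2 or any 1 DS library (adjusted p up to 0.184). The call of Htr4 was lost without Acb replicate 1. Of 12 dopamine and adrenergic receptor genes (8.33% called, near that of all genes), the alpha-2C receptor Adra2c alone was called (log2 fold change 0.93 ± 0.28, adjusted p = 0.0226), and this call was lost without Acb replicate 1, Acb replicate 2, DS replicate 2 or DS replicate 3. Without Acb replicate 3, 1 gene fell.

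In the endocannabinoid and opioid list, 4 of 14 genes were higher in the Acb and 3 lower (50% called, against 10.9% of all genes). Next to Cnr1, the anandamide hydrolase Faah was lower, at 8.38, 15.8 and 15.2 CPM in the Acb against 29.4, 27.3 and 30.3 CPM in the DS (log2 fold change -1.15 ± 0.25, adjusted p = 0.00131), and the delta opioid receptor gene Oprd1 was the third. Oprl1, the nociceptin receptor, was higher together with its ligand gene Pnoc (log2 fold change 0.75 ± 0.22, adjusted p = 0.0162), a call lost without Acb replicate 2, DS replicate 1 or DS replicate 2. In the cholinergic list of 14 (7.14% called), Ache, the enzyme that hydrolyses acetylcholine, was the 1 gene called, at 44.4, 51.2 and 36.0 CPM in the Acb against 16.1, 16.8 and 22 CPM in the DS (log2 fold change 1.26 ± 0.21, adjusted p = 2.08e-05). Chat, the synthetic enzyme of cholinergic interneurons, was at 18.5, 14.2 and 14.5 CPM against 9.92, 8.35 and 9.06 CPM and did not pass, although its ranges did not overlap (log2 fold change 0.79 ± 0.30, adjusted p = 0.09). Without Acb replicate 1, 2 cholinergic genes were called lower, and 1 without Acb replicate 2.

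Of 17 GABA receptor subunits, 3 were higher and 1 lower in the Acb (23.5% called, against 10.9% of all genes). Gabrg1, the gamma-1 subunit, was at 68.0, 45.0 and 41.1 CPM against 14.1, 17.1 and 12 CPM (log2 fold change 1.84 ± 0.22, adjusted p = 2.97e-08), next to Gabrq above. Of the GABA-B receptor subunits, Gabbr1 was called higher (log2 fold change 0.27 ± 0.09, adjusted p = 0.0391) and Gabbr2 lower (log2 fold change -0.64 ± 0.16, adjusted p = 0.00554). The call of Gabbr1 was lost in 8 of 18 alternatives, among them library totals, removal of the length trend, and leaving out any 1 library other than Acb replicate 3 (adjusted p up to 0.148). Without Acb replicate 1, 2 GABA receptor subunits were lower. Of 24 glutamate receptor subunits, 3 rose and 2 fell (20.8% called). The AMPA receptor subunit Gria1 was at 458, 426 and 402 CPM against 337, 332 and 318 CPM (log2 fold change 0.38 ± 0.09, adjusted p = 0.0044), while Gria3 was at 121, 108 and 123 CPM against 155, 188 and 180.2 CPM (log2 fold change -0.57 ± 0.12, adjusted p = 0.000607). The count of glutamate receptor genes that rose was 1 without Acb replicate 1, DS replicate 1 or DS replicate 2, and 1 gene fell without DS replicate 1 or DS replicate 3.

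Of 80 potassium channel subunits tested, which set excitability, 16 fell in the Acb (10 without DS replicate 2), beside 6.03% of all genes, and 4 rose, which is near the 4.84% of all genes, with a median log2 fold change of -0.20. Kcnj6, the GIRK2 channel, was at 2.77, 2.10 and 1.92 CPM in the Acb against 11.6, 12.1 and 11.5 CPM in the DS (log2 fold change -2.36 ± 0.42, adjusted p = 7.89e-05). Kcnab1, an accessory subunit, had a log2 fold change of -0.57 ± 0.10 (adjusted p = 3.77e-05). Of the 4 that rose, Kcnj10, the Kir4.1 channel of astrocytes and oligodendrocytes, was at 157, 133 and 99.5 CPM against 76.9, 62.0 and 65.7 CPM (log2 fold change 0.93 ± 0.14, adjusted p = 5.81e-06).

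**Figure D3:**
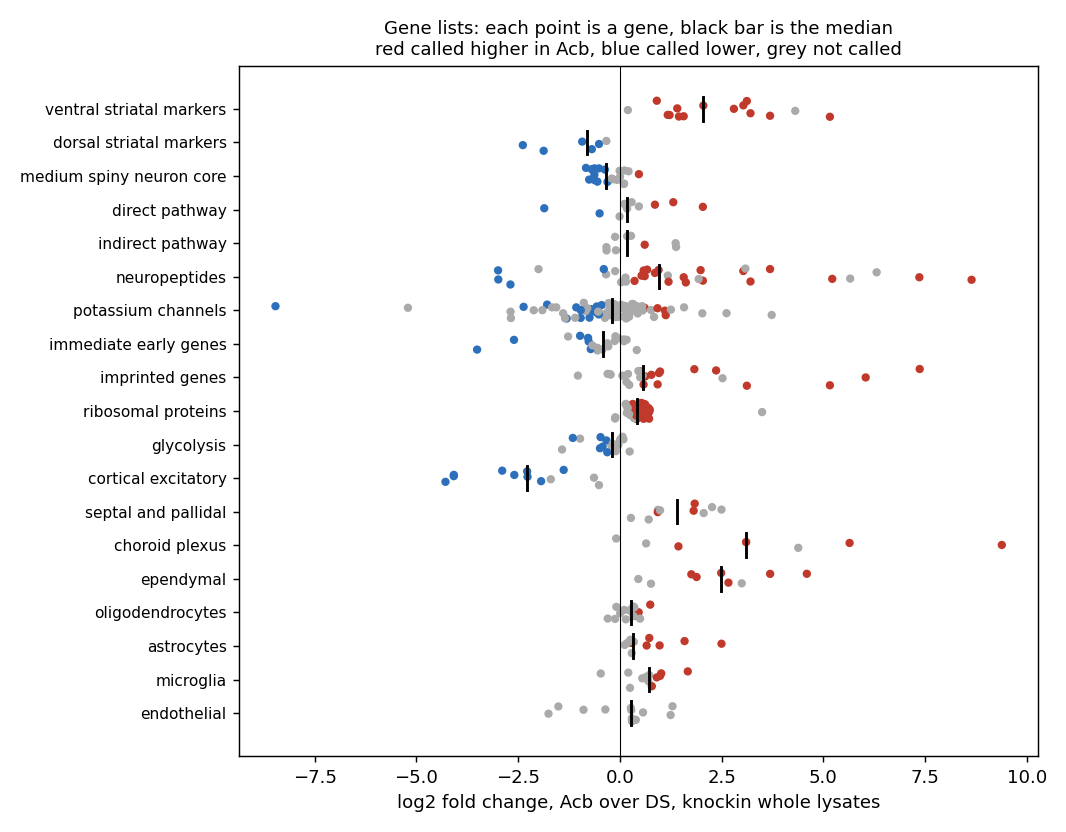
Log2 fold changes of Acb over DS in knockin whole lysates (horizontal axis) for the tested genes of 19 lists, one list per row, with a black bar at each median. Red and blue points are genes called higher and lower in the Acb and grey points are not called. The ventral markers have a median of 2.05, to the right of 0, and the cortical excitatory genes a median of -2.27, to the left.

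The largest decreases in the Acb included genes of cortical excitatory neurons. Of 12 such markers 9 were lower and none higher. Their median log2 fold change was -2.27, and their summed level ran from 136.7 to 261 CPM in the Acb and from 873.8 to 981.7 CPM in the DS. Neurod6, a transcription factor of cortical projection neurons, was at 0.749, 7.21 and 4.42 CPM in the Acb and at 54.1, 80.7 and 67.4 CPM in the DS (log2 fold change -4.08 ± 0.33, adjusted p = 2.19e-12). Slc17a7, the vesicular glutamate transporter VGLUT1, was at 47.5, 105 and 136 CPM against 453, 501 and 439 CPM (log2 fold change -2.28 ± 0.18, adjusted p = 7.39e-13). These mRNAs are known from cortical rather than medium spiny neurons, and every DS library held several times the level of every Acb library. The part of cortical tissue in the other genes lower in the Acb was not tested.

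Tbr1 (log2 fold change -2.59 ± 0.23), Bhlhe22 (log2 fold change -2.89 ± 0.34) and Nrn1 (log2 fold change -2.27 ± 0.20) followed in the same list. Nr4a2, which marks the claustrum and deep cortex and is also an immediate early gene, was at 5.39, 4.50 and 6.43 CPM in the Acb and 59.3, 57.5 and 69.0 CPM in the DS (log2 fold change -3.51 ± 0.22, adjusted p = 2.51e-15). Ntng2, another claustral gene, had a log2 fold change of -1.99 ± 0.50 (adjusted p = 0.00511, not called without DS replicate 2). The claustral and endopiriform list did not lean to the DS as a whole. Of its 7 genes tested, these 2 fell, 1 rose (Nnat) and 4 did not pass, with a median of -0.004. Among genes without a cortical list, the largest decreases included the secreted proteins Rspo2 (log2 fold change -3.83 ± 0.57), a Wnt agonist, and Smoc2 (log2 fold change -3.85 ± 0.84), a matrix protein not called with DESeq2, and the TGF-beta family receptor Acvrl1 (log2 fold change -3.06 ± 0.40). Myl4 (log2 fold change -3.81 ± 0.50), a myosin light chain, and Clspn (log2 fold change -3.38 ± 0.35), a replication checkpoint protein, were further ones. The adjusted p of these genes ran from 2.51e-15 for Nr4a2 to 0.00511 for Ntng2.

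Forebrain patterning transcription factors divided between the regions, with 14 of 63 higher in the Acb, 19 lower and a median of 0.02. This is 52.4% called, against 10.9% of all genes. Those lower included the cortical genes above, Mef2c, at 148, 161 and 154 CPM against 403, 429 and 405 CPM (log2 fold change -1.42 ± 0.10, adjusted p = 6.08e-14), and Nfib (log2 fold change -1.27 ± 0.13, adjusted p = 1.51e-09). Those higher included Zic1, known from septum and ventral forebrain, at 29.4, 17.9 and 38.8 CPM in the Acb against 5.64, 7.73 and 10.7 CPM in the DS (log2 fold change 1.84 ± 0.29, adjusted p = 9.92e-06). Lhx8, of cholinergic and pallidal lineages, had a log2 fold change of 1.82 ± 0.40 (adjusted p = 0.00125), and Isl1, of direct pathway and cholinergic neurons, had a log2 fold change of 1.32 ± 0.31 (adjusted p = 0.00263, not called without Acb replicate 1). In a list of 10 septal and pallidal genes 3 rose and none fell, with a median of 1.40. Its summed level was 109.3 to 145.9 CPM in the Acb and 51.8 to 61.9 CPM in the DS, and its part in the genes higher in the Acb was not tested.

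Of 69 axon guidance genes, 13 were higher in the Acb, beside 4.84% of all genes. The 4 that were lower are near the 6.03% of all genes, and the median was 0.23. Ntn1, the secreted guidance cue netrin-1, was at 39.8, 60.0 and 40.1 CPM in the Acb and at 7.07, 6.43 and 8.73 CPM in the DS (log2 fold change 2.65 ± 0.24, adjusted p = 3.74e-11). Plxnb1, a semaphorin receptor, had a log2 fold change of 1.19 ± 0.20 (adjusted p = 2.06e-05). Sema7a, a membrane-anchored semaphorin, went the other way, at 24.1, 17.7 and 25.4 CPM against 77.0, 85.2 and 72.5 CPM (log2 fold change -1.80 ± 0.17, adjusted p = 2.01e-10). Without DS replicate 2 the decreases numbered 2. Of 30 cadherins and protocadherins tested 5 rose and none fell (16.7% called, against 10.9% of all genes). Among those that rose were Pcdh19 (log2 fold change 1.06 ± 0.23, adjusted p = 0.00103) and Pcdh8 (log2 fold change 1.48 ± 0.33, adjusted p = 0.00136). Without Acb replicate 1 or any 1 of the DS replicates 3 rose, and 2 fell without Acb replicate 1 and 1 without DS replicate 1.

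Genes of other cell types and tissues differed as well. Of 12 astrocyte markers 6 were higher in the Acb and none lower (50% called, against 10.9% of all genes, median 0.32). Their summed level was 2172 to 3066 CPM against 1768 to 2076 CPM. Slc1a3, the glutamate transporter GLAST, was at 383, 319 and 319.9 CPM in the Acb and 193, 175 and 151 CPM in the DS (log2 fold change 0.98 ± 0.11, adjusted p = 8.26e-09), while the water channel gene Aqp4 did not pass (log2 fold change 0.30 ± 0.17, adjusted p = 0.327). Agt, which encodes angiotensinogen and is made by astrocytes, was at 23.0, 12.1 and 10.2 CPM against 3.51, 1.73 and 2.75 CPM (log2 fold change 2.50 ± 0.40, adjusted p = 1.39e-05). Of 12 microglial markers 5 were higher (41.7% called, median 0.71), and the summed level was 277.3 to 311.1 CPM against 178.4 to 206.7 CPM. Csf1r, the receptor on which microglia depend, had a log2 fold change of 1.02 ± 0.20 (adjusted p = 0.000399), while Cx3cr1 had a log2 fold change of 0.21 ± 0.21 (adjusted p = 0.66). Of 16 oligodendrocyte markers 4 were higher (25% called, 2 genes without Acb replicate 1 or DS replicate 3). Their summed levels were 3294 to 4166 CPM against 2897 to 3314 CPM. Among them were the myelin genes Mag (log2 fold change 0.75 ± 0.13, adjusted p = 6.1e-05) and Mbp (log2 fold change 0.37 ± 0.11, adjusted p = 0.0216). The call of Mbp was lost with DESeq2 and without Acb replicate 1, Acb replicate 2, DS replicate 2 or DS replicate 3. None of 12 endothelial markers passed, and 1 did without Acb replicate 1.

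Some genes of ependymal cells, which line the ventricles, and of the choroid plexus were higher in the Acb. Of 9 ependymal genes 6 were higher (3 without DS replicate 1 or DS replicate 2), with a median of 2.49 and a summed level of 46.2 to 54.6 CPM against 8.71 to 14.2 CPM. In wild-type whole lysates 1 of 9 was called higher and none lower (median 1.86), beside 6.54% of all genes higher. In knockin heavy fractions 1 of 9 was called higher and none lower (median 0.86), beside 7.89% of all genes higher. Foxj1, which drives the building of motile cilia, was at 8.68, 12.7 and 7.39 CPM against 2.52, 2.10 and 3.13 CPM (log2 fold change 1.89 ± 0.45, adjusted p = 0.00326). Of 13 choroid plexus genes 8 could be tested and 4 were higher, with a summed level of 50.5 to 60.0 CPM against 15.3 to 15.6 CPM. Of the 13, 5 had no read in the Acb and 4 none in the DS. Called higher were 3 of 9 tested in wild-type whole lysates and 5 of 9 in knockin heavy fractions. Ttr, the most abundant choroid plexus mRNA, was at 0.749, 0 and 3.27 CPM in the Acb and 0.0548, 0 and 0.110 CPM in the DS and did not pass (adjusted p = 0.233). Otx2, a transcription factor made in the choroid plexus, had 54, 107 and 28 reads in the Acb and none in the DS, at least 102-fold higher in the Acb against a floor of 3 reads over the DS group (adjusted p = 1.86e-06).

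Hypothalamic peptide genes were low. Of 7 tested, 3 were called higher in the Acb (1 without Acb replicate 3), none was called lower and 4 did not pass. By sign alone 5 were higher in the Acb and 2 lower, down to a log2 fold change of -6.14, and 1 had no read in the Acb. Gal, the galanin precursor, had 64, 5 and 53 reads in the Acb and none in the DS, at least 60.7-fold higher (adjusted p = 0.000458). Avp, the vasopressin precursor, had 20, 17 and 11 reads against none, at least 24.9-fold higher (adjusted p = 0.0487). The call of Avp was lost in 10 of 18 alternatives, among them leaving out any 1 library, thinning and removal of the length trend (adjusted p up to 0.146). Oxt, the oxytocin precursor, was at 2.17, 1.30 and 5.95 CPM against 0.0548, 0.0619 and 0.110 CPM (adjusted p = 0.00762), and was not called without Acb replicate 3. The summed list reached 4.00 to 14.3 CPM in the Acb and 0.767 to 2.60 CPM in the DS. The list median was 5.22 as fitted and 2.90 with genes without reads in a region set to their bound. The part of septal, ventricular, glial or hypothalamic tissue in the genes higher in the Acb was not tested.

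By absolute level, Camk2n1, Snap25 and Nrgn were among the largest differences toward the DS. Camk2n1, an inhibitor of CaM kinase II, was at 1549, 1977 and 1601 CPM in the Acb and at 4104, 3787 and 3246 CPM in the DS (log2 fold change -1.12 ± 0.08, adjusted p = 2.57e-13). Nrgn, the calmodulin-binding postsynaptic protein neurogranin, was at 378, 507 and 523 CPM against 1415, 1475 and 1472 CPM (log2 fold change -1.63 ± 0.09, adjusted p = 2.6e-16). Snap25, a SNARE protein of synaptic vesicle release, had a log2 fold change of -0.83 ± 0.07 (adjusted p = 8.7e-12). All 3 are also abundant in cortical neurons, whose markers were higher in the same DS libraries, and the part of cortex in these values was not tested.

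Toward the Acb the 4 largest were Apoe, Eef1a1, Nsg2 and Kif3a. Apoe, the lipid carrier made mainly by astrocytes, was at 949.9, 808 and 775 CPM in the Acb and at 357, 349 and 335 CPM in the DS (log2 fold change 1.28 ± 0.09, adjusted p = 8.82e-14). Eef1a1, a translation elongation factor, was at 3885, 3517 and 3613 CPM against 2949.8, 2760.0 and 2739 CPM (log2 fold change 0.38 ± 0.07, adjusted p = 6.56e-05). Nsg2, a neuronal endosomal protein, had a log2 fold change of 0.49 ± 0.08 (adjusted p = 1.03e-05).

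Activity-regulated genes were lower in the Acb where they were called. Of 21 immediate early genes 6 fell and none rose (28.6% called, against 10.9% of all genes), with a median log2 fold change of -0.42. Egr1, a zinc finger transcription factor induced by neuronal activity, was at 223, 267 and 299.6 CPM in the Acb and at 419, 518 and 417 CPM in the DS (log2 fold change -0.78 ± 0.11, adjusted p = 8.66e-07). Homer1, a postsynaptic scaffold, was at 176, 159 and 136 CPM against 327, 321 and 278 CPM (log2 fold change -0.97 ± 0.11, adjusted p = 1.32e-08). Bdnf, the neurotrophin delivered to striatum from cortex, was at 2.17, 4.91 and 3.17 CPM against 22.9, 24.5 and 14.2 CPM (log2 fold change -2.60 ± 0.35, adjusted p = 6.38e-07). Egr3, Arc and Nr4a2 were the other 3, and Arc was lost with DESeq2 and without Acb replicate 1, Acb replicate 3 or DS replicate 2. Several of these are higher in cortex than in striatum, and the part of cortical RNA was not tested. Of 18 glycolytic genes 6 fell and none rose (33.3% called). Among them were Aldoa, at 1034, 1093 and 1199 CPM against 1348, 1366 and 1403 CPM (log2 fold change -0.31 ± 0.08, adjusted p = 0.00618), and Pfkp, a phosphofructokinase (log2 fold change -0.49 ± 0.10, adjusted p = 0.00067). Without Acb replicate 3, 1 glycolytic gene rose.

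Ribosomal protein genes, the family to which the mutated S6 belongs, were higher in the Acb as a group. Of 81 tested 62 rose and none fell, with a median log2 fold change of 0.43, while 4.84% of all genes rose. Their summed level was 26970 to 28240 CPM in the Acb and 19190 to 20960 CPM in the DS. Rps6 itself, whose alanine codons do not show in counts per gene, was at 413, 408 and 369.7 CPM in the Acb and at 302, 279 and 288 CPM in the DS (log2 fold change 0.45 ± 0.10, adjusted p = 0.000807). Rplp1, a protein of the ribosomal stalk, was at 677, 649 and 718 CPM against 386, 429 and 445 CPM (log2 fold change 0.70 ± 0.09, adjusted p = 2.46e-07). Rps21 was at 453, 440.3 and 433 CPM against 272, 269 and 272 CPM (log2 fold change 0.71 ± 0.09, adjusted p = 4.58e-07). The regions did not overlap for any of these 3 or for 68 of the 81 genes in all, against 26.2% of all genes tested. The largest value of the list, in Rpl30, rests on a few reads and was not called. Ribosomal protein genes share sequence with many pseudogenes, so their levels are uncertain where reads could align to more than 1 copy. These mRNAs are short, and with the trend on transcript length removed 51 rose and none fell.

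In the heavy polysomal fractions of the knockin mice, the same family did not stand on the Acb side. Of 83 ribosomal protein genes tested there, 32 were lower in the Acb and none higher, with a median of -0.47, in a comparison that called 18.6% of 16108 genes (7.89% higher and 10.7% lower). The log2 fold change of Rplp1 was 0.70 in whole lysates and -0.82 in heavy fractions (adjusted p = 0.00589), that of Rps21 0.71 and -1.27 (adjusted p = 0.00106), and that of Rps6 0.45 and 0.03 (adjusted p = 0.922). Both kinds of library came from the same lysates, and the difference between them was not tested. In wild-type whole lysates 54 of 82 were higher in the Acb and none lower, with a median of 0.43. Many ribosomal protein mRNAs begin with a run of pyrimidines, the 5′ terminal oligopyrimidine tract read by mTOR-dependent translation. Of 60 matched genes, 43.3% had 8 or more C or T in a row between 12 bases before and 16 after a RefSeq start. Among tested genes with a promoter the share was 13.7%. For each gene the start with the longest run was taken, and a run did not have to begin at the start itself. With 6 or more, the shares were 58.3% and 31.2%.

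**Figure D4:**
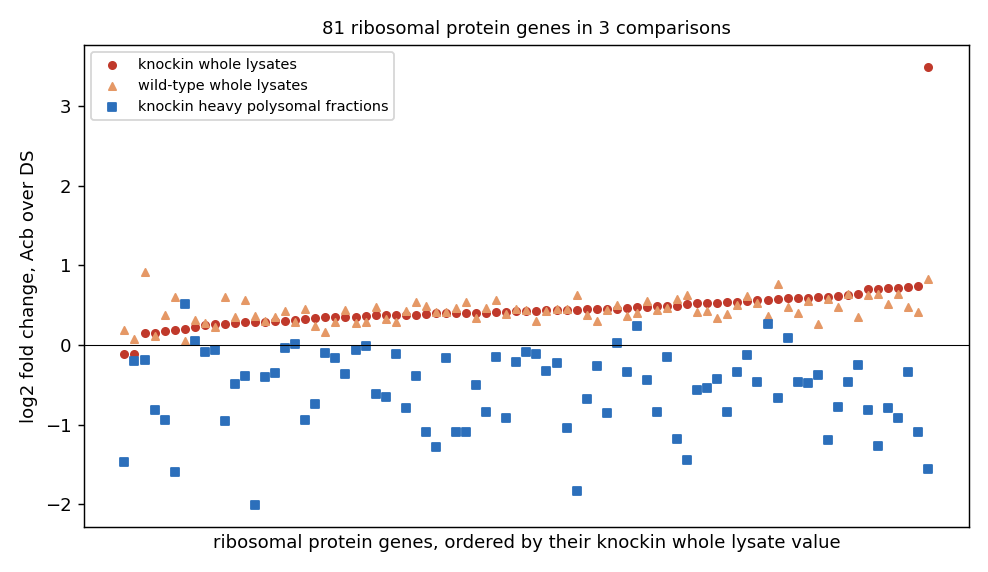
Log2 fold change of Acb over DS for 81 ribosomal protein genes, ordered along the horizontal axis by their knockin whole lysate value, in knockin whole lysates (red circles), wild-type whole lysates (orange triangles) and knockin heavy polysomal fractions (blue squares). The whole lysate values of both genotypes lie mostly above 0, with medians of 0.43, while most heavy fraction values lie below 0. The red point at 3.50 is Rpl30, which was not called.

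Of 79 nuclear genes of the mitochondrial respiratory chain, 7 rose in whole lysates and none fell (median 0.13). The 8.86% called is near the 10.9% of all genes. The count that rose was 11 with the DESeq2 Wald test, 2 with library totals alone, 2 with the length trend removed, 2 without Acb replicate 3, 0 without DS replicate 1, 1 without DS replicate 2 and 4 without DS replicate 3. In heavy fractions 45 of 80 were lower in the Acb and 2 higher (median -0.84). Ndufa13, a complex I subunit, was at 158, 172 and 186 CPM in Acb lysates and 97.8, 133 and 126 CPM in DS lysates (log2 fold change 0.53 ± 0.12, adjusted p = 0.00206, not called without DS replicate 1), and in heavy fractions its log2 fold change was -1.09 (adjusted p = 0.00109). Of 22 genes of the S6 kinase and mTOR pathway, Rps6 rose and 2 fell (13.6% called, near the 10.9% of all genes). Deptor, an mTOR inhibitor, was at 20.1, 15.2 and 12.6 CPM in the Acb against 55.2, 42.2 and 40.7 CPM in the DS (log2 fold change -1.52 ± 0.21, adjusted p = 1.32e-06). Rps6ka3, the kinase RSK2, was at 80.4, 94.4 and 69.2 CPM against 122, 121 and 124 CPM (log2 fold change -0.59 ± 0.13, adjusted p = 0.00123). The S6 kinase gene Rps6kb1 had a log2 fold change of -0.36 ± 0.16 and did not pass (adjusted p = 0.183).

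The same regional comparison in wild-type littermates, made in other libraries, called 1975 of 15557 genes (12.7%), 1018 higher in the Acb (6.54%) and 957 lower (6.15%). Scaled by library totals alone, 65.2% of the wild-type calls were higher in the Acb against 51.5% with TMM. All 1693 genes called in the knockin were tested there: 1653 had the same sign and 1133 were called in the same direction, which is 66.9% of the knockin list and 57.4% of the wild-type list. None was called in the opposite direction. The log2 fold change of Dlk1 was 5.16 in rpS6P-/- mice and 5.48 in wild-type mice, that of Pdyn 2.04 and 2.02, that of Cnr1 -1.87 and -1.55, and that of Slc17a7 -2.28 and -2.73. Of the genes called in knockin lysates, 782 were called in the same direction in knockin heavy fractions and 49 in the opposite one, in libraries made from the same lysates.

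**Figure D5:**
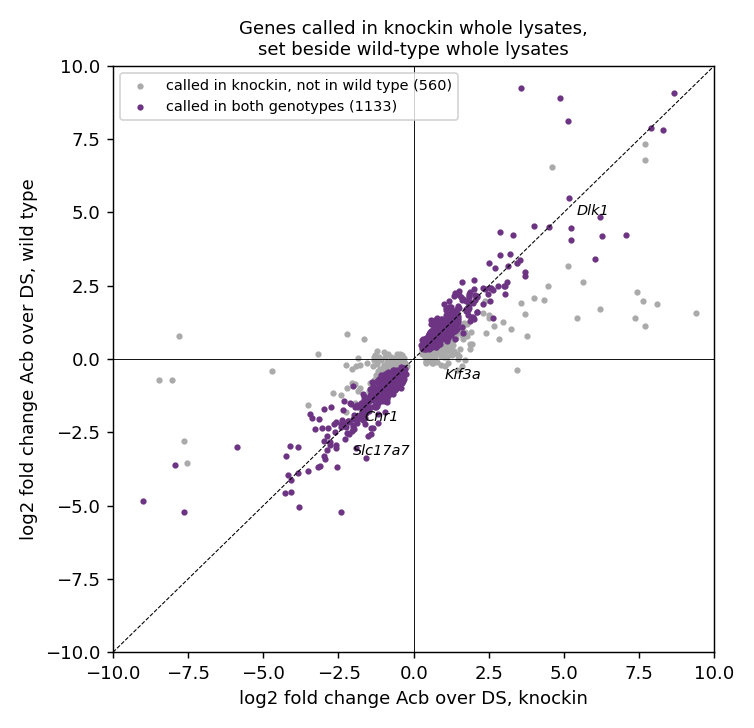
Log2 fold change of Acb over DS in wild-type whole lysates (vertical axis) against that in knockin whole lysates (horizontal axis) for genes called in the knockin. Purple points are the 1133 genes called in both genotypes and grey points the other 560, the dashed line marks equal values, and Kif3a lies below it with 0.79 in the knockin and -0.12 in the wild type.

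The difference between genotypes was tested as the interaction of region and genotype over the 12 whole lysate libraries. Of 16364 genes 1 was called (0.00611%), and 837 had an unadjusted p under 0.05. Kif3a, a motor subunit of kinesin-2 needed for cilia and axonal transport, was at 1029, 784 and 752 CPM in the Acb and at 500.1, 522 and 466 CPM in the DS of rpS6P-/- mice, without overlap (log2 fold change 0.79 ± 0.10, adjusted p = 1.04e-07). In wild-type mice it was at 560.1 ± 132 CPM in the Acb and 608 ± 85.8 CPM in the DS (SD, n = 3 each), with a log2 fold change of -0.12 (adjusted p = 0.658). The interaction was 0.92 ± 0.16 (adjusted p = 0.00848). It was not called with DESeq2, with the filterByExpr filter, or without Acb wild-type replicate 1, Acb knockin replicate 1, DS wild-type replicate 3 or DS knockin replicate 3. Leaving out 1 library at a time gave 0 genes without the first or the last of these 4, 4 genes without Acb wild-type replicate 3, 2 without any 1 of the Acb knockin replicates and 1 otherwise. The genes with the next smallest p, the chaperone Hspa5, Tmem38b and Nrgn, had an adjusted p of 0.273.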

How the data were processed

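RNA from 24 libraries (2 regions, 2 genotypes, whole lysate or heavy polysomal fraction, 3 replicates each) had been sequenced as poly(A)-selected, stranded, single-end libraries. The deposited table holds the authors' raw counts of reads per gene. Per the labels and the study's methods, reads were aligned to mm10 with TopHat2 2.0.13 and Bowtie2 2.2.3, and counted on the stranded gene models with HTSeq 0.6.1p1. Counting per gene cannot separate transcript forms, and reads shared with pseudogenes can be lost or misplaced. Mice were pooled, so 1 library is 1 replicate.

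From these counts, genes with 15 or more reads in total across the libraries compared were tested with edgeR 4.0.16 in R 4.3.3 (TMM scaling, quasi-likelihood F test with legacy settings, region as the only term, or region, genotype and their interaction). Calls were made at a Benjamini-Hochberg adjusted p under 0.05. The study's methods name DESeq2, which was used here as an alternative (1.42.0), with limma-voom (limma 3.58.1), other scalings and filters, thinning to the smallest library, removal of a trend on transcript length, a replicate block and leaving out each library. The procedure was tested on simulated data. A gene with no read in a region was given a floor of 3 reads over its 3 libraries. Sequences were read from RefSeq tables (GRCm38.p6), matched by Entrez gene identifier.

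Named genes were the 15 largest called changes in each direction among genes that averaged 50 or more reads and whose regions did not overlap, the 4 called genes with the largest CPM difference in each direction, up to 6 members of each list with the lowest adjusted p, a set of defining genes, and genes called in the interaction. The others named (Bc1, Chgb, Adcyap1, Oprd1, Trh, Rpl30, Slc5a7, Tmem158, Hspa5 and Tmem38b) were picked after their values were seen, as were the response element and the lengths of the pyrimidine runs. The comparison, its lists and its tests were chosen with earlier results of these data known. Intervals and p-values cover the spread between pools, and depth in the 6 libraries ranged from 9697531 to 19207807 counted reads. The heavy fractions of wild-type mice were not analysed here, and a few named genes are not reported here.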

Additional observations from a re-analysis of the deposited data

Results flagged for a closer look

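The regional difference of Kif3a, the kinesin-2 motor subunit, differed between genotypes by a test of the difference itself, the interaction of region and genotype over 12 whole lysate libraries. The log2 fold change of Acb over DS was 0.922 larger in rpS6P-/- than in wild-type mice (SE 0.16, adjusted p = 0.00848, edgeR quasi-likelihood test). The 3 knockin Acb libraries, at 1029, 784 and 752 CPM, were all above the 3 knockin DS libraries. In heavy polysomal fractions of the same knockin lysates the log2 fold change was 0.04. The difference is 1 call among 16364 genes, it was lost in several of the alternatives given next, and its cause was not tested.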

How the results depend on the processing

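The count of 1693 genes ranged from 1049 to 1554 when 1 library was left out and from 1574 to 1876 under the other settings. The interaction count of 1 became 3 with library totals and with a minimum of 1 read, 0 with filterByExpr and with DESeq2, 2 with the length trend removed, and 0 to 4 without 1 library. Library totals moved the median interaction over all genes from -0.003 to -0.10. Under library totals the share of wild-type calls that were higher in the Acb was 65.2%. Leaving out 1 library gave 1327 to 1728 calls in wild-type lysates and 2056 to 3005 in knockin heavy fractions.

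Whether Acb and DS libraries with the same replicate number came from the same mice is not stated, and the main fit assumed no pairing. Deviations of same-numbered Acb and DS libraries correlated at 0.0113, -0.00605 and -0.000465 over 11428 genes. With 3 libraries per region these values cannot decide whether mice were shared. With the replicate block the counts were 1815 in knockin lysates, 2086 in wild-type lysates, 2623 in heavy fractions and 5 in the interaction (5 with the block and the length trend removed).

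Of 188 called named genes, all 188 kept their sign in every alternative run and 135 were called in every one. Acb libraries were shallower than DS libraries, and the part of depth in genes not called was not tested beyond the thinned setting.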

Other observations

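Interneuron markers divided between the regions, with 6 of 18 higher in the Acb and 3 lower (50% called, against 10.9% of all genes). The cholinergic genes Slc5a7, the choline transporter (log2 fold change 0.77, adjusted p = 0.0161), and Lhx8 were higher, as were Calb2, Sst and Lhx6 (log2 fold change 0.93, adjusted p = 0.00114), a factor of interneurons from the medial ganglionic eminence. Pvalb, the parvalbumin gene of fast-spiking interneurons, was lower (log2 fold change -1.31, adjusted p = 0.000154), together with Vip and Cck. Cholinergic, somatostatin and parvalbumin genes also occur in the septum, pallidum and cortex, and the part of those tissues was not tested.

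Circadian clock genes were called lower in the Acb in 6 of 16 cases and higher in 1 (43.75% called, against 10.9% of all genes). The core activator genes Clock (log2 fold change -0.58, adjusted p = 0.00139) and Arntl (log2 fold change -0.66, adjusted p = 0.0421) were among those that fell, and Bhlhe41 (log2 fold change 0.51, adjusted p = 0.0114) rose. Arntl was lost in 7 of 18 alternatives, among them DESeq2, filterByExpr and leaving out Acb replicate 1, Acb replicate 2, DS replicate 1 or DS replicate 2. Without Acb replicate 1 or DS replicate 3 the count that fell was 3, and without DS replicate 2 it was 2 with none that rose. The time of dissection is not in the labels used here.

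Of 40 sodium, calcium and HCN channel subunits 5 were higher and 8 lower (32.5% called, against 10.9% of all genes). Cacna2d2, an accessory calcium channel subunit, was higher (log2 fold change 1.38, adjusted p = 2.01e-08), while Cacnb4 (log2 fold change -0.56, adjusted p = 6.12e-05) and Cacnb3 (log2 fold change -0.84, adjusted p = 4.29e-05) were lower. The count higher was 2 without Acb replicate 3 or DS replicate 2, and the count lower was 5 without any 1 of the DS libraries. Of 8 genes of migrating neuroblasts, Sox11, Cd24a and Dlx2 were higher and Stmn1 lower (log2 fold change -0.84, adjusted p = 1.35e-08). The count higher was 1 without Acb replicate 3, DS replicate 1 or DS replicate 3. Of 6 oligodendrocyte precursor genes tested, 2 were higher and 4 did not pass (33.3% called, against 10.9% of all genes). Pdgfra (log2 fold change 0.82, adjusted p = 0.00413) and Gpr17 (log2 fold change 0.84, adjusted p = 0.00149) were the 2 called. Without DS replicate 2 the count of this list was 1.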
